A study of Mus musculus with 15 samples.

Results

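The mitochondrially encoded genes, those carried by the circular DNA of the mitochondrion itself, were taken as every gene whose symbol in the mouse annotation starts with mt-. They were 37 of the 55416 genes in the deposited tables, of which 13 code for proteins (mRNAs), 2 for the RNAs of the mitochondrial ribosome (rRNAs) and 22 for transfer RNAs (tRNAs). They are also all the genes that the annotation places on the mitochondrial chromosome, a molecule of 16299 bases in the GRCm39 build. Membership rested on the symbol alone and on no measured value, although this set was chosen with earlier results of these data known.

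Whole blood from 15 wild-type C57BL/6 mice was sequenced in pairs of 150-base reads, with 1 library per mouse and 5 mice per group. According to the labels, cells of 4MOSC1, a mouse oral squamous carcinoma line, were transplanted into the tongue and grown for 10 days in vivo, and this growth protocol was given for all 3 groups. Mice of the early ND and late ND groups received 2 doses of αCTLA-4, an antibody against an inhibitory receptor of T cells, and a neck dissection (ND), the surgical removal of the draining lymph nodes, either early or late. The untreated mice received neither antibody nor surgery. The study's text and figure legend differ on whether the late ND mice had been operated on by the time they were bled. The comparison of late with early ND set the early and late schedules of neck dissection against each other. Both groups had immune checkpoint inhibition, and both were also set against untreated mice. Values given as after late ND are those of the late ND group, whether or not its mice had been operated on when bled. Age and sex were not used here.

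Mitochondrial DNA is transcribed from both strands into long RNAs, and the tRNAs that lie between most of its other genes are cut out to release the rRNAs and mRNAs. The mRNAs encode subunits of complexes I, III and IV of the respiratory chain and of the ATP synthase (complex V), whereas all other subunits, and the enzymes that copy and transcribe this DNA, come from nuclear genes. In blood, white cells, platelets and reticulocytes contain mitochondria, whereas mature red cells have lost them. The RNA of whole blood is a mixture, so fewer cells of a type and less RNA per cell cannot be told apart.

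Part of the mitochondrial genome also exists as a near-identical copy in nuclear DNA, which decides which of these genes a short read can identify. An alignment of the mitochondrial chromosome to the GRCm39 genome gave a match on the minus strand at chr1:24650616-24655269 with 99.936% identity to chrM:6390-11042 over 4654 aligned bases. It held 2 mismatches and 1 gap. The copy begins inside mt-Co1, the catalytic subunit of complex IV, at the first capital of the following stretch of the plus strand (chrM:6360-6419), which is shown because it marks where the near-identical match of mt-Co1 starts. The capitals are the bases shared with the copy, and the single small letter among them, at position 6393, is a mismatch. A less similar match on chromosome 2, with 97.4% identity to chrM:4441-7699, covers all of mt-Co1.

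start of the copy in mt-Co1: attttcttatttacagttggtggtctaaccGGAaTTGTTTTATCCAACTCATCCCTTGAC

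The other mismatch and the gap fall in mt-Nd3, a small subunit of complex I, and in mt-Tr, the tRNA for arginine. The stretches around them are printed with the mitochondrial strand first (chrM:9431-9491 and chrM:9798-9858, plus strand) and the copy second (chr1:24652168-24652228 and chr1:24651800-24651861, minus strand). Capitals mark the base that differs and, in the copy of mt-Tr, an extra A that the alignment placed in a run of the same base.

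mt-Nd3, mitochondrial: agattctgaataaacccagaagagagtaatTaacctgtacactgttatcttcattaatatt

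mt-Nd3, chromosome 1: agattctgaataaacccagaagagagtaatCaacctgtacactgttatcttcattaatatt

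mt-Tr, mitochondrial: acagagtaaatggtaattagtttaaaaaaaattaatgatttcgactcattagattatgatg

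mt-Tr, chromosome 1: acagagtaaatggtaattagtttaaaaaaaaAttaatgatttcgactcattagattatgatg

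Of the 13 mRNAs, 6 lie wholly inside the copy, namely mt-Co2 and mt-Co3 (complex IV), mt-Atp6 and mt-Atp8 (complex V), and mt-Nd3 and mt-Nd4l (complex I). For 5 of these, every stretch of 150 bases occurs without a mismatch in nuclear sequence, and for mt-Nd3 this holds for 98.5% of the stretches. The other complex I gene mt-Nd4 is 63.6% inside and mt-Co1 31.3% inside. The remaining 5, mt-Nd1, mt-Nd2, mt-Nd5 and mt-Nd6 of complex I and mt-Cytb of complex III, have no base in the copy, and neither do the rRNAs mt-Rnr1 and mt-Rnr2.

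The levels of the mRNAs followed this division in all 15 libraries. The 6 genes inside the copy make up 38.2% of the summed length of the mRNAs but held between 0.153% and 0.789% of their counts. Per kilobase of gene, the lowest of the 7 other mRNAs had from 9.21 to 46.1 times the count of the highest of the 6 in the same library, with a median of 23.4. Counts of mt-Co2 ran from 33 to 355 per library, those of mt-Atp6 from 23 to 206 and those of mt-Co3 from 23 to 280. The smaller genes mt-Nd3, mt-Nd4l and mt-Atp8 reached at most 29, 33 and 8 counts, and mt-Nd4l had 0 counts in early ND 4 and mt-Atp8 in untreated 3 and early ND 4. Complex V, whose mitochondrial subunits mt-Atp6 and mt-Atp8 both lie in the copy, took 0.0317% to 0.228% of mRNA counts, against 37.4% to 52.7% for complex IV, 31.6% to 42.1% for complex I and 15.4% to 20.6% for mt-Cytb alone.

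**Figure D1:**
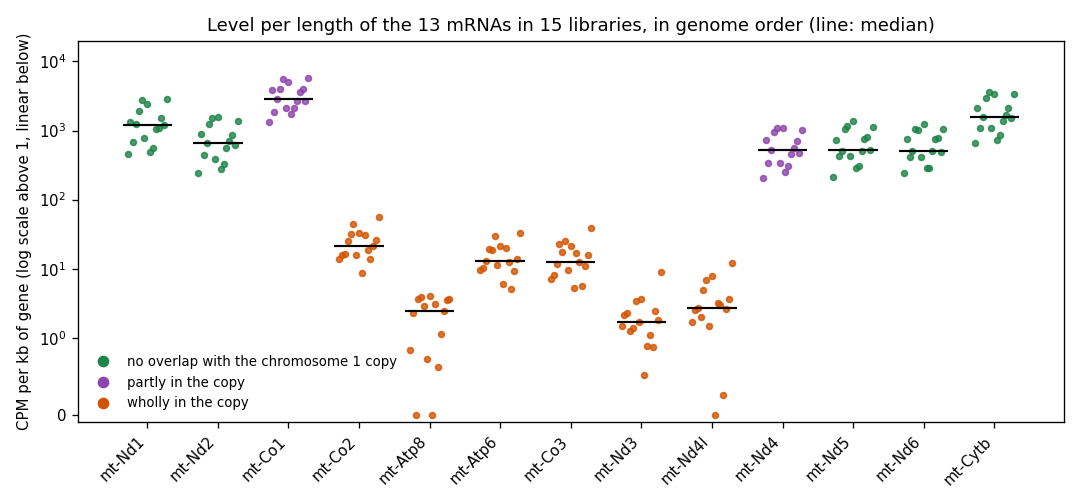
Level of each mitochondrially encoded mRNA in CPM per kilobase of gene (vertical axis, logarithmic above 1 and linear below), with 1 point per library (n = 15), a line at the median and genes in genome order on the horizontal axis. The 6 genes wholly inside the chromosome 1 copy sit below the other 7 in every library, with medians per gene between 1.71 and 21.2 against 511 to 2863.

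Pseudogenes annotated on the copy carried counts of a similar size. Gm28661, the counterpart of mt-Co2, had 43 to 397 counts, and its summed counts were 1.32 times those of mt-Co2. Gm28437 had 15 to 230 counts, 0.806 times the sum of mt-Co3. Gm28438 had 5 to 95 counts, which was 5.97 times the sum of mt-Nd3, its counterpart. Gm29216 (17 to 158 counts) and Gm28439 (5 to 93 counts), which match the inside parts of mt-Co1 and mt-Nd4, held 0.00153 and 0.00438 times the counts of those whole genes. Counts of mt-Co1 and mt-Nd4 include their bases outside the copy, so these ratios are not comparable with those of genes wholly inside. Atp6-ps and Gm10222, counterparts of mt-Atp6 and mt-Nd4l that were added after their values were seen, had 1.13 and 0.797 times the counts of their partners. The tables tallied 16874066 to 44926843 alignments per library as not unique and gave them to no gene. How many of these came from the mitochondrial genome was not tested, so the levels of the 6 genes inside the copy are those of uniquely assigned pairs only.

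**Figure D2:**
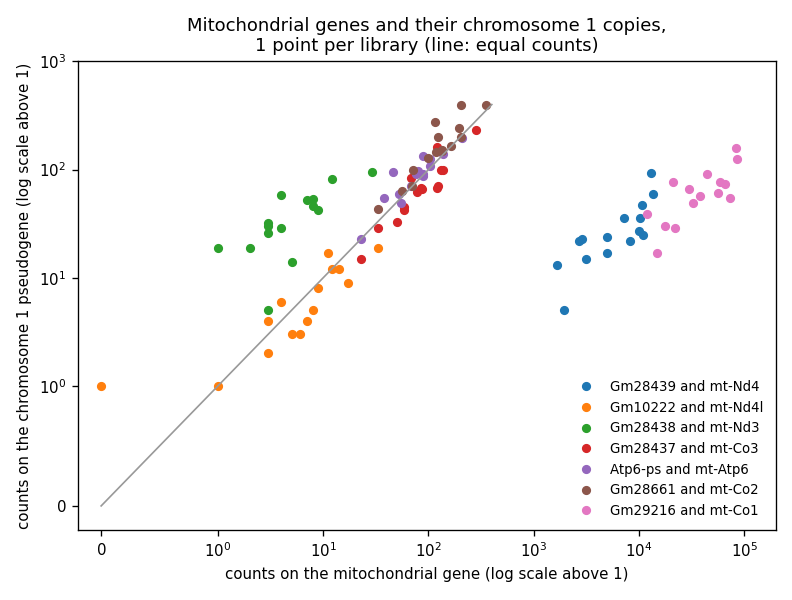
Counts on 7 pseudogenes of the chromosome 1 copy (vertical axis) against counts on their mitochondrial counterparts (horizontal axis), both logarithmic above 1, with 1 point per library and pair and a line where both are equal. The pairs of mt-Co2, mt-Atp6, mt-Co3 and mt-Nd4l lie near the line, those of mt-Nd3 above it, and those of mt-Nd4 and mt-Co1 far to its right. Counts of mt-Nd4 and mt-Co1 include their parts outside the copy.

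Among the 7 other mRNAs, mt-Co1 (ENSMUSG00000064351, chrM:5328-6872) had the highest level per length in each of the 15 libraries, followed by mt-Cytb and then mt-Nd1. Their medians were 2863, 1593 and 1192 CPM per kilobase, where CPM is a count divided by the sum of counts on genes in its library and brought to a common total. The other 4 complex I genes could not be placed in a fixed order. They had medians of 654 (mt-Nd2), 529 (mt-Nd4), 520 (mt-Nd5) and 511 (mt-Nd6), and took the ranks from 4 to 7 in an order that changed between libraries. The lengths used for mt-Co1 and mt-Nd4 include their parts inside the copy. With their counts put on the bases outside it alone, the median of mt-Co1 was 4165 and that of mt-Nd4 was 1453 CPM per kilobase, so that the place of mt-Nd4 in the order depended on this choice.

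mt-Nd6 (ENSMUSG00000064368, chrM:13552-14070) is the only mRNA encoded on the minus strand, and its end overlaps the end of mt-Nd5 on the plus strand. The overlap is shown in capitals on the plus strand (chrM:13522-13595), because reads there belong to both genes unless the strand is known.

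end of mt-Nd5 and mt-Nd6: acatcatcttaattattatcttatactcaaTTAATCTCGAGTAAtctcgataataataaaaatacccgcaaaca

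Per length, the counts on mt-Nd6 were 0.894 to 1.15 times those on mt-Nd5 in the 15 libraries. Untreated, early ND and late ND mice had mean ratios of 1.04 ± 0.067, 0.938 ± 0.035 and 0.957 ± 0.033 (SD, n = 5 each). Whether the library kit marked the strand and which strand setting was used for counting are not given in the sources used here. Between 50.6% and 55.1% of uniquely aligned pairs were assigned to no gene. RNA of mt-Nd6 and RNA read from the opposite strand of its position therefore cannot be told apart in these counts.

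Together, the 13 mRNAs had 4326, 13378, 6649.9, 10070.0 and 16372 CPM in untreated mice 1 to 5 (mean 10159 ± 4881, SD, n = 5). The early ND mice had 21235, 7115, 20415, 5307 and 6315 CPM (12077 ± 8016, SD, n = 5). The late ND mice had 9184, 11805, 13782, 9516 and 21135 CPM (13084 ± 4870.3, SD, n = 5). The groups overlapped, and the spread within each exceeded the differences between their means. Early ND fell apart into 2 mice, replicates 1 and 3, with more mRNA than every untreated mouse, and 3 mice below the median of the untreated group. These 2 mice also had the lowest share of hemoglobin counts of their group, 38.3% and 39.7% against 50.0% to 64.1% in the other 3, and the lowest mt-Co1 share of mRNA counts, 40.9% and 38.4% against 45.6% to 52.1%. The part of the hemoglobin share in the mRNA levels was not tested.

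mt-Co1 showed the same distribution on its own, with 2058, 6030.1, 2822, 4423 and 6095 CPM in untreated mice, 8693, 3246, 7845, 2680.2 and 3293 CPM after early ND, and 4160.3, 5564, 6179, 4064 and 8999 CPM after late ND. mt-Cytb, the only mitochondrially encoded subunit of complex III, had 756 to 3377 CPM in untreated mice, 827 to 4073 after early ND and 1588 to 3813 after late ND. For both genes the late ND range lay inside the early ND range but for the highest late ND mouse in mt-Co1.

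**Figure D3:**
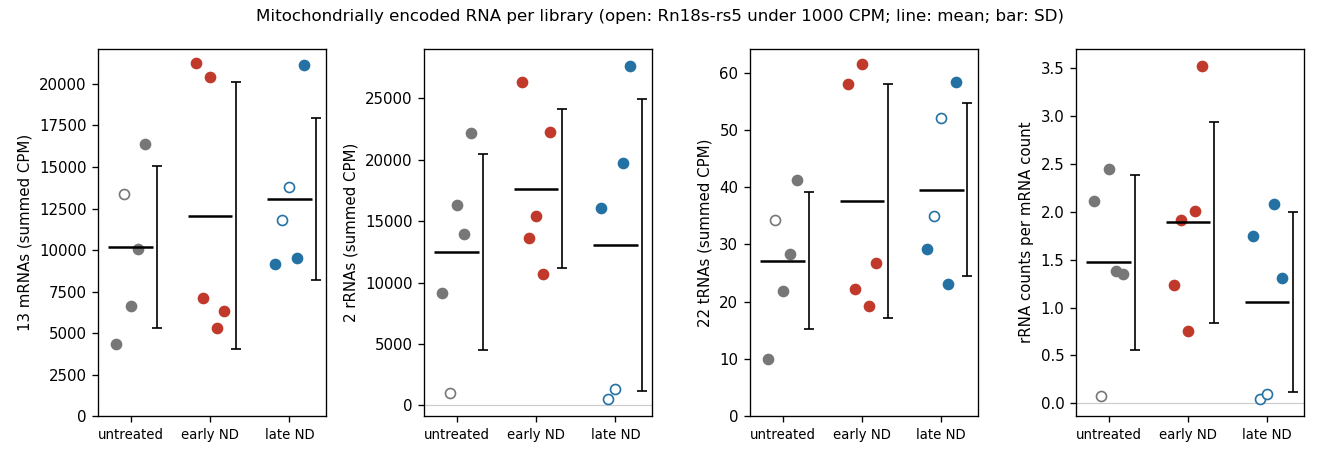
Summed CPM of the 13 mRNAs, 2 rRNAs and 22 tRNAs and the ratio of rRNA to mRNA counts (vertical axes) in the untreated, early ND and late ND mice (horizontal axis). Each point is 1 library (n = 5 per group), lines are means and bars are SD. The open points, untreated 2, late ND 2 and late ND 3, have rRNA to mRNA ratios of 0.0405 to 0.0987, and the filled ones 0.753 to 3.52.

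The rRNAs were set apart by 3 libraries. mt-Rnr2 (chrM:1094-2675), the RNA of the large subunit of the mitochondrial ribosome, had 6519, 758, 11077, 9756 and 14643 CPM in untreated mice 1 to 5. It had 18001, 9336, 10608, 7379 and 15517 CPM in the early ND mice and 11273, 378, 951, 13899 and 18602 CPM in the late ND mice. mt-Rnr1 (chrM:70-1024), the RNA of the small subunit, was low in the same libraries, with 244 CPM in untreated 2, 99.9 in late ND 2 and 410 in late ND 3 against 2600.4 to 9039 in the other 12. These 3 libraries stood out for cytoplasmic rRNA as well: Rn18s-rs5, a gene of 18S rRNA, had 313 to 766 CPM in them and at least 13402 in the others. The mRNAs did not follow, with 11805 to 13782 CPM in the 3 libraries, within the range of the other 12.

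The ratio of rRNA to mRNA counts was 0.0749 in untreated 2, 0.0405 in late ND 2 and 0.0987 in late ND 3, and from 0.753 to 3.52 in the other 12 libraries. Over all mice the untreated, early ND and late ND groups had mean ratios of 1.47 ± 0.913, 1.89 ± 1.05 and 1.05 ± 0.939 (SD, n = 5 each). Without the 3 libraries, the untreated mean was 1.82 ± 0.544 (SD, n = 4) and the late ND mean 1.71 ± 0.386 (SD, n = 3). The late ND mean thus lay below the early ND mean in both sets, by less than the SD of either group. The summed level of the rRNAs changed its order: the early ND mean of 17652 ± 6439.7 CPM lay above the late ND mean of 13056 ± 11849 CPM (SD, n = 5 each), but below the mean of the late ND mice other than replicates 2 and 3, 21148 ± 5925 CPM (SD, n = 3). The libraries low in 18S RNA include no early ND mouse, so late and early ND could not be compared among them.

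The balance between the rRNAs was steadier. Per length, mt-Rnr2 had 1.17 to 1.51 times the counts of mt-Rnr1 in the 12 libraries rich in 18S RNA. It had 1.40, 1.87 and 2.29 times the counts in late ND 3, untreated 2 and late ND 2.

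The tRNAs were nearly absent from the counts, with 10.1 to 61.5 CPM for all 22 together and 4488 counts over the 15 libraries. Their counts differed with the room next to each gene. Of the 22, 13 lie within 150 bases, the read length, of another gene of the same strand on both sides, and 12 of these had 0 counts in all 15 libraries. The thirteenth, mt-Tc, had 1 count. Of the 12 genes at 0, 4 also lie wholly inside the chromosome 1 copy (mt-Td, mt-Tk, mt-Tg and mt-Tr), and the other 8 have no base in it. The other 9 have at least 150 free bases on the wider side, and 8 of them held 4487 counts. The ninth, mt-Tf, had 0 counts. Its 944 bases on the wider side are counted around the circle. In the linear sequence it starts at the first base, with no base before it, and has 1 base to the next gene. Strand divided the genes in the same way, as 8 tRNA genes on the minus strand, where genes are sparse, had 4390 counts and 14 on the plus strand had 98.

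The neighbours mt-Tp and mt-Tt show the contrast. They meet end to end on opposite strands, at chrM:15356-15422 on the minus strand and chrM:15289-15355 on the plus strand, next to the control region. The mature part of each is printed in its own direction, since their lengths are equal and their counts are not.

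mt-Tp: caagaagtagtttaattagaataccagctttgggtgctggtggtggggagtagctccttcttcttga

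mt-Tt: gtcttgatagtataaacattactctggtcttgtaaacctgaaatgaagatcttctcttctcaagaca

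mt-Tp, the tRNA for proline, had 2601 counts, and mt-Tt, the tRNA for threonine, 55. By library, mt-Tp had 24, 260, 80, 93 and 142 counts in untreated mice, 167, 99, 225, 57 and 114 after early ND and 149, 305, 487, 149 and 250 after late ND. It had counts in every library, and the groups overlapped in CPM. The next were mt-Te (glutamate, 612 counts), mt-Tq (glutamine, 459), mt-Ty (tyrosine, 373) and mt-Ts1 (serine, 297), also on the minus strand, of which mt-Ts1 lies wholly inside the copy. A mature tRNA is shorter than 1 read, and RNA from the opposite strand of these positions cannot be told apart from the tRNA or its precursor here.

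**Figure D4:**
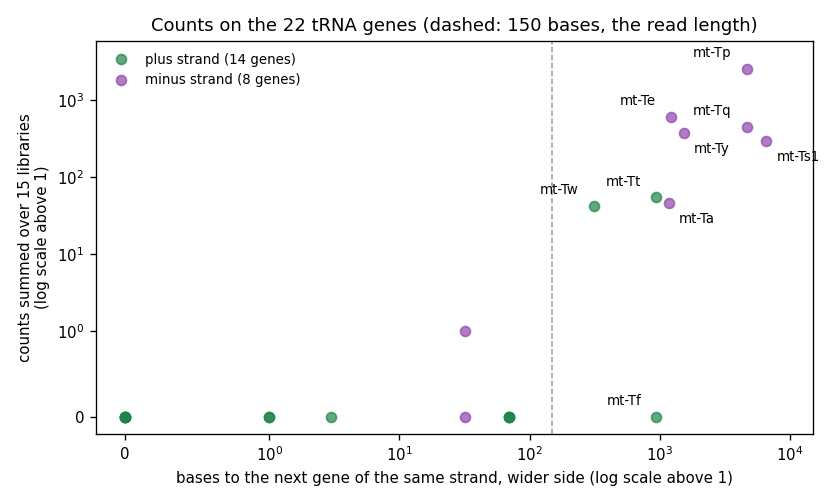
Counts summed over 15 libraries (vertical axis) against the distance to the next gene of the same strand on the wider side, in bases (horizontal axis), both logarithmic above 1, with 1 point per tRNA gene and colors for strand. Left of the dashed line at 150 bases, 12 of the 13 genes are at 0 and mt-Tc is at 1. Right of it, 8 of 9 have between 43 and 2601 counts and mt-Tf has 0. Distances are counted around the circle, and mt-Tf starts at the first base of the linear sequence.

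As a share of all counts on genes, the 37 genes took 1.35% to 3.86% in untreated mice, 1.60% to 4.76% after early ND and 1.23% to 4.88% after late ND. With 78886 to 455179 counts behind it, the 95% Wilson interval of each share was narrow. It was 1.34% to 1.35% for the smallest number of counts, in untreated 1, and covers counting error only. The tables held 5527108 to 13924361 counts on genes per library, from 14.9% to 64.1% of which fell on hemoglobin genes. This share was 31.6% to 61.7% in untreated mice, 38.3% to 64.1% after early ND and 14.9% to 29.3% after late ND.

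A level relative to all counts therefore depends on the share of hemoglobin. With the hemoglobin genes and Rn18s-rs5 left out of the total, the untreated, early ND and late ND groups had mean mRNA levels of 21037 ± 5819, 23801 ± 11765 and 16820.1 ± 5128 CPM (SD, n = 5 each). On this scale late ND had the lowest mean of the 3 groups, whereas on the total of all genes it had the highest. The late ND mice ran from 13183 to 25606 CPM and overlapped both the early ND mice, at 14044 to 36741, and the untreated mice, at 14693 to 30601.

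In the comparison of late with early ND, no mitochondrially encoded gene passed the test. Of the 37 genes, 17 had enough counts to be tested (10 mRNAs, both rRNAs and 5 tRNAs), and 0 had an adjusted p under 0.05 in edgeR's quasi-likelihood test, with the Benjamini-Hochberg adjustment over 13315 genes. Of all genes tested, 4.98% passed. DESeq2 also called 0 of the 20 members to which it gave an adjusted p. The test scales libraries by the trimmed mean of M-values (TMM), which sets the typical gene equal between libraries. On that scale the 17 log2 fold changes were all negative, from -1.24 to -0.57, but on library totals 12 of the 17 were positive and the median of the mRNAs was 0.07 in place of -0.68. The median of all genes shifted in the same way, from 0.01 with TMM to 0.86 on library totals. The scale is set per library and shared by all genes. The place of the mRNA median below that of all genes on both scales is therefore a single observation.

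At an unadjusted p under 0.05, 7 of the 17 were lower after late ND, against 9.33% of all genes tested. They were the mRNAs mt-Atp6, mt-Nd4 and mt-Nd6 and 4 of the tRNAs. mt-Atp6, a subunit of the proton channel of ATP synthase, had a log2 fold change of -1.09 ± 0.43 (SE; edgeR adjusted p = 0.144), with CPM of 20.4, 7.73, 14.5, 4.16 and 13.8 after early ND and 8.66, 3.51, 6.39, 9.42 and 22.1 after late ND. As the values show, the groups overlapped, and late ND 5 lay above every early ND mouse. mt-Atp6 lies wholly inside the copy, so these are values of uniquely assigned pairs only. Its counterpart Atp6-ps had a log2 fold change of -0.91 (edgeR adjusted p = 0.105). The complex I subunits mt-Nd4 and mt-Nd6 had -0.69 ± 0.32 and -0.65 ± 0.29 (SE; edgeR adjusted p = 0.208 and 0.204), and the tRNA mt-Tp -0.60 ± 0.21 (SE; edgeR adjusted p = 0.104, the lowest of the members). On library totals mt-Nd4, mt-Nd6 and mt-Tp were at 0.06, 0.12 and 0.25 and mt-Atp6 at -0.28. The number of 7 rested on single mice: it was 1 without early ND 1, 2 without early ND 3 or without any of late ND 1 to 4, 13 without early ND 2 and 15 without late ND 5.

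The other mRNAs gave fold changes within a narrow band. mt-Co1 was at -0.63 ± 0.30, mt-Cytb at -0.68 ± 0.35, mt-Nd5 at -0.68 ± 0.32, mt-Nd2 at -0.70 ± 0.38 and mt-Nd1 at -0.57 ± 0.39 (log2, SE, TMM scale), with edgeR adjusted p from 0.217 to 0.402. Of the genes inside the copy other than mt-Atp6, mt-Co2 was at -0.78 ± 0.37 and mt-Co3 at -0.71 ± 0.44, with edgeR adjusted p of 0.227 and 0.358. mt-Nd3, mt-Nd4l and mt-Atp8 had too few counts to be tested. The rRNAs had the largest fold changes and the largest errors, -1.24 ± 0.86 for mt-Rnr1 and -1.22 ± 0.83 for mt-Rnr2 (edgeR adjusted p = 0.418 and 0.408). Without late ND 2 and 3, the libraries low in 18S RNA, they were at -0.54 ± 0.34 and -0.53 ± 0.40 (edgeR adjusted p = 0.365 and 0.445).

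**Figure D5:**
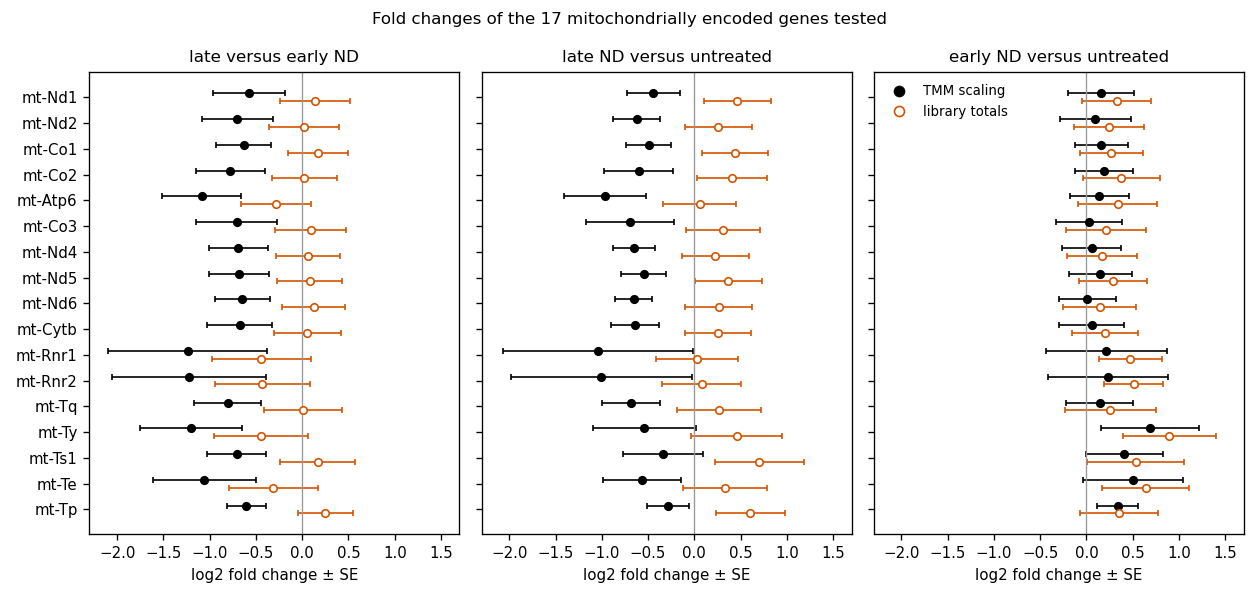
Log2 fold change ± SE (horizontal axes) of the 17 mitochondrially encoded genes tested, in each of 3 comparisons of 5 against 5 mice, with TMM scaling (filled) and with library totals (open). With TMM all 17 are negative in late versus early ND and in late ND versus untreated. With library totals 12 and 17 of them, respectively, are positive.

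Against untreated mice, late ND gave a similar picture, in a comparison that uses the same late ND libraries. Of the same number of members tested, 17, edgeR called 0, against 3% of the 13547 genes tested, and DESeq2 called 1, mt-Nd6 (adjusted p = 0.0347), of the 19 to which it gave an adjusted p. With TMM all 17 log2 fold changes were negative, with a median of -0.63 for the mRNAs, whereas on library totals all 17 were positive, with a median of 0.29, and the median of all genes moved from 0.00235 to 0.91. At an unadjusted p under 0.05, 7 were lower, against 8.28% of all genes. mt-Nd6 had -0.66 ± 0.20 (SE; edgeR adjusted p = 0.119, the lowest of the members; 0.27 on library totals), and mt-Nd4 had -0.65 ± 0.23 (SE; edgeR adjusted p = 0.169; 0.23 on library totals). By mouse, mt-Nd6 had 127, 389, 214, 265 and 538 CPM in untreated mice and 259, 388, 402, 254 and 539 CPM after late ND. These values overlapped, and on this scale the late ND mean, 368 CPM, was above that of untreated mice, 307 CPM. The number of 7 fell to 2 without untreated 5 or without any of late ND 1 to 4, fell to 4 without untreated 3 and rose to 13 without late ND 5.

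No member passed the test between early ND and untreated mice. edgeR called 0 of 17, at adjusted p of at least 0.938, and 0 passed an unadjusted p under 0.05, while DESeq2 called 0 of 24. Of the 12151 genes tested, 0% passed after adjustment, and 2.33% were lower at an unadjusted p under 0.05. The log2 fold changes ran from 0.01 to 0.69 and the errors from 0.22 to 0.66. The median of the mRNAs was 0.12 with all mice, -0.08 without early ND 1 and -0.13 without early ND 3, the 2 mice richest in mitochondrial mRNA.

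The nuclear genes that supply the rest of the respiratory chain were given as lists of symbols. For late versus early ND, 1 gene of 77 measured subunits of complexes I to V was called, Atp5f1b, the catalytic β subunit of ATP synthase, at -0.85 ± 0.18 (log2, SE, TMM scale; edgeR adjusted p = 0.0236). Its CPM on library totals averaged 268 ± 24.0 in the late group against 255 ± 35.3 in the early group (SD, n = 5 each), so its direction, like that of the members, changed with the scale. Of all genes tested, 2.48% were called lower. Atp5f1b was not called without early ND 4, late ND 3 or late ND 5 (edgeR adjusted p of at most 0.0631 with any 1 mouse left out). The median log2 fold changes were -0.01 for 36 genes of complex I, 0.17 for 4 of complex II, -0.01 for 9 of complex III, -0.26 for 11 of complex IV and -0.05 for 17 of complex V, against -0.68 for the mitochondrially encoded mRNAs and 0.01 for all genes.

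For late ND versus untreated, 6 of the 77 were called lower and 0 higher, against 2.01% of all genes tested called lower. They were Ndufs4 of complex I (-0.49 ± 0.11), Uqcrh of complex III (-0.83 ± 0.17), Ndufa4, Cox7b and Cox6c, listed with complex IV (-0.66 ± 0.10, -0.75 ± 0.15 and -0.99 ± 0.20), and Atp5mj of complex V (-0.89 ± 0.16), all as log2 ± SE with edgeR adjusted p from 0.0242 to 0.0346. On library totals each had a mean CPM in the late ND group above that of the untreated group, such as 69.1 ± 11.5 against 65.6 ± 14.2 for Cox6c (SD, n = 5 each). All 6 calls were lost without untreated 3 or without any 1 of the 5 late ND mice, where 0 of the 77 were called. In those fits 0 of all genes tested were called lower, against 272 with all mice. The loss was therefore not particular to these genes, and Cox6c, for example, stayed between -1.11 and -0.79 with any 1 mouse left out. For early ND versus untreated, 0 of the 77 were called.

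Among the nuclear genes that keep and read mitochondrial DNA, 1 was called in the 3 comparisons. In late versus early ND, 0 genes passed among 8 tested of mitochondrial transcription, including the polymerase gene Polrmt, 17 of RNA processing, 8 of DNA replication, 77 ribosomal proteins, 19 aminoacyl-tRNA synthetases and 6 regulators of mitochondrial biogenesis. Their medians lay between -0.13 and 0.14. Against untreated mice, late ND was higher for Dna2, a nuclease and helicase active in nuclear and mitochondrial DNA, at 1.21 ± 0.17 (log2, SE; edgeR adjusted p = 0.0241), with 41.1 ± 7.52 (SD, n = 5) against 9.50 ± 4.24 (SD, n = 5) CPM. Of all genes tested, 0.989% were called higher, and Dna2 was not called without untreated 3 or without late ND 1, 2, 4 or 5 (edgeR adjusted p of at most 0.0712 with any 1 mouse left out). In those fits of late ND versus untreated, at most 1 of all genes tested was called higher, against 134 with all mice. No other gene of these 6 lists passed in that comparison, and 0 passed for early ND versus untreated.

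Among markers of blood cell types, most of those called between late and early ND were of red cells. The 4 hemoglobin genes summed to 148654 to 292871 CPM after late ND and to 382954 to 640689 after early ND, and 6 of the 7 erythroid markers tested were called lower after late ND, at a median log2 fold change of -2.75. Of all genes tested, 2.48% were called lower. The number of 6 fell to 3 without early ND 4, to 2 without late ND 3 and to 0 without the libraries low in 18S RNA. In the fit without those libraries 0 of all genes were called lower, against 330 with all mice, and the erythroid median was -2.40. The summed level of the 8 erythroid markers was 3720 to 7185 CPM after late ND and 7961 to 17747 after early ND. The 8 neutrophil markers summed to 11233 to 19487 CPM after late ND and 1617 to 7791 after early ND, with 1 called, Mmp8, which lost its call without any 1 of 8 of the 10 mice. All 8 were higher at an unadjusted edgeR p under 0.05, with a median log2 fold change of 1.16 on the TMM scale. Of all 13315 genes tested, 1921 were higher at that threshold. Platelets carry mitochondria without a nucleus. Their 7 markers summed to 1995 to 3283 CPM after late ND and 1180.0 to 2908 after early ND, and overlapped. Of these markers 0 were called, and Gp1bb was at 0 in every library. The median of their summed CPM was higher after late ND, 2617 against 1815. On the TMM scale the 6 tested were all lower, at log2 fold changes from -0.48 to -0.39. T cell (0 of 5), B cell (0 of 4) and skin gland markers (0 of 4) were not called, and 1 of 4 monocyte markers, Csf1r, was called higher, a call lost without any 1 of 7 of the 10 mice. The 4 monocyte markers summed to 871 to 1181 CPM after late ND and to 217 to 458 after early ND. The part of these cell types in the levels of the mitochondrially encoded genes was not tested.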

How the data were processed

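The authors aligned the read pairs with STAR 2.7.9 to GRCm39, sorted them with SAMtools 1.7 and deposited raw counts per gene from HTSeq 0.13.5. The labels also name mm10, and the annotation release is not given in the sources used here. Counters of unassigned pairs were left out of library totals. Of 55416 gene identifiers, 54749 matched the GENCODE annotation of GRCm39. Groups and replicate numbers came from the sample titles.

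Each pair of groups was fitted in edgeR 4.0.16 (R 4.3.3; low counts filtered by group, TMM, quasi-likelihood test, Benjamini-Hochberg over all genes, threshold 0.05). The SE is the log2 fold change over the root of F. Class levels and ratios were described without a test. With 5 mice per group, p-values measure the spread between these mice. The mitochondrial sequence was aligned to the genome with BLAST+ 2.17.0 (at least 90% identity over 150 bases). In simulated counts for late versus early ND, 188 of 200 genes changed by 2 (log2) were recovered, with 11 false calls among 13104 genes. Every simulated gene had the same dispersion, and the groups differed in the changed genes only. The members had log2 fold changes from -1.24 to -0.57, so the simulation does not give the power to detect changes of their size.

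All mRNAs and rRNAs were named, tRNAs that passed the filter or were among the 5 of highest level, listed nuclear genes with the smallest adjusted p under 0.05 (at most 3 per list), and nuclear copies with a mean of at least 10 counts. mt-Tt, mt-Tf, mt-Tc, mt-Td, mt-Tk, mt-Tg, mt-Tr, Polrmt and Gp1bb were named as single exceptions. The members, lists and tests were chosen with earlier results of these data known. Alternatives were library totals, DESeq2 (1.42.0) size factors and Wald test, no filter, totals without hemoglobin genes and Rn18s-rs5, the replicate number as a block, and leaving out libraries under 1000 CPM of Rn18s-rs5 or each mouse in turn.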

Additional observations from a re-analysis of the deposited data

Results flagged for a closer look

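A library was marked where its distance to the nearest of the other 4 of its group was large for the range of the group (Dixon's criterion at 95%). Of 78 groups of values examined, 4 were marked, and chance alone marks about 1 in 20.

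In late ND 2, one of the libraries low in 18S RNA, mt-Rnr2 had 2.29 times the counts of mt-Rnr1 per length, against 1.24 to 1.43 in the other late ND mice. The remaining 3 all belong to late ND 5, which had the highest mitochondrial mRNA and the lowest hemoglobin share of its group, 14.9%. There mt-Nd1 had 2757 CPM against 999 to 1447 in the other late ND mice, mt-Ty 7.72 against 1.01 to 2.73, and mt-Co2 38.1 against 9.47 to 17.7. Without late ND 5, the median log2 fold change of the mRNAs in late versus early ND was -0.90 in place of -0.68, and still 0 members were called.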

How the results depend on the processing

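The scale decided the direction. On library totals without TMM, the median log2 fold change of the mRNAs turned to 0.071 (late versus early ND) and 0.29 (late ND versus untreated). In late versus early ND, the fold changes became 0.14 for mt-Nd1, 0.019 for mt-Nd2, 0.17 for mt-Co1, 0.024 for mt-Co2, 0.094 for mt-Co3, 0.062 for mt-Nd4, 0.080 for mt-Nd5, 0.12 for mt-Nd6, 0.056 for mt-Cytb, 0.0093 for mt-Tq, 0.17 for mt-Ts1 and 0.25 for mt-Tp. In late ND versus untreated, mt-Nd4 became 0.23 and mt-Nd6 0.27. Of the nuclear genes named, Atp5f1b became 0.077 in the first comparison, and in the second Ndufs4 became 0.42, Uqcrh 0.16, Ndufa4 0.30, Cox7b 0.22, Cox6c 0.077 and Atp5mj 0.11. By construction, library totals set the sum of all counts equal, including the hemoglobin genes.

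With those genes and Rn18s-rs5 left out of the total, the mean CPM rose to 21037 (mRNAs), 30214 (rRNAs) and 56.9 (tRNAs) in untreated mice, and to 23801, 36941 and 75.5 after early ND. DESeq2's Wald test called 1 member, mt-Nd6, in late ND versus untreated. With each mouse left out in turn, 0 members were called in each comparison, and the median of the mRNAs ran from -0.90 to -0.42 in late versus early ND, from -0.86 to -0.46 in late ND versus untreated and from -0.13 to 0.26 in early ND versus untreated.

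With the replicate number as a block, 2 members were called in late versus early ND (mt-Atp6, mt-Tp) and 4 in late ND versus untreated (mt-Nd2, mt-Atp6, mt-Nd4, mt-Nd6). The numbers were not treated as a pairing, since same-numbered mice did not deviate together in all pairs. The correlations ran from -0.18 to 0.46, from 0.03 to 0.58 and from -0.24 to 0.08 in the 3 comparisons, and 2, 5 and 0 of 10 libraries correlated best with their own number.

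Without the libraries low in 18S RNA, 4 of all genes were called in late versus early ND in place of 663, and 0 in place of 406 in late ND versus untreated. Of the other values recomputed, 115 counts, medians and levels moved by less than the spread or by at most 1.5 times, although the median of the mRNAs in early ND versus untreated changed sign, to -0.0017 without untreated 2 and to -0.075 and -0.13 without early ND 1 and 3. Of the fold changes of single genes, 387 kept their direction and side of the threshold and 80, all of nuclear genes, kept their direction and lost the call. Low counts limited the tRNAs and the genes inside the copy most, since 20 members could not be tested.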

Other observations

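Genes listed as copies of mitochondrial DNA on other chromosomes were also counted. Gm13340 and Gm13341 on chromosome 2, where the genome alignment gave a second match of 97.4% identity over 3260 bases, had 39 to 506 and 12 to 150 counts per library. Gm10288, on the list of copies but on chromosome 3, where the genome alignment gave no match at its limits, had 3 to 31. Their log2 fold changes in late versus early ND were -0.66, -0.53 and -0.21 on the TMM scale (edgeR adjusted p from 0.512 to 0.684). Of the 10 listed copies, 8 were tested and 0 were called in any of the 3 comparisons, and their median in late versus early ND was -0.55, beside -0.68 for the mitochondrially encoded mRNAs.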
